A study of Mus musculus with 15 samples.

Results

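The genes described here act in G2 and mitosis, the stretch of the cell cycle in which replicated chromosomes are condensed, attached to the spindle and divided between daughter cells. They were chosen by name, 57 genes with roles in mitotic entry, the spindle checkpoint, the kinetochore, spindle motors, condensin, the anaphase-promoting complex (APC/C) and cytokinesis. A gene was read from the probe set that the platform annotation ties to it alone, and where several existed, from the one with the highest mean log2 signal. This gave 56 of the 57 genes, out of 18193 genes with such a probe set, and all 56 passed the filter on dim genes that left 11465 genes for testing. Ccnb1, which encodes cyclin B1, had no probe set tied to it alone and carries no value here.

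The cells were primary mammary tumour cells of FVB/N mice carrying MMTV-PyMT, a transgene in which the promoter of mouse mammary tumour virus drives polyoma middle T, an oncogene. All 5 groups carried this transgene and grew as mammospheres, floating spheres of cells, unattached in serum-free medium with EGF, FGF and B27. After 10 days the spheres received an agent for 2 days, 12 days in all. The agents were vehicle, the Notch pathway inhibitor DAPT, the MEK1 inhibitor U0126, the FAK inhibitor TAE226 or the Src inhibitor PP2. Each group had 3 arrays, and no dose is stated in the labels. The samples are called biological replicates, with nothing said of separate mice or cultures, so the spread that p-values measure here is that between these arrays and may be technical.

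Most genes of mitosis are silent through much of the cell cycle and are switched on together as cells pass from S phase into G2. Their promoters are held down in resting cells by the DREAM complex and turned on by MuvB with B-MYB and FOXM1, through a short element called the CHR that often lies near an NF-Y box. Because the products exist mainly in dividing cells, their summed RNA is widely read as a measure of proliferation, MKI67 being the familiar example in breast tumours.

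In these spheres the mitotic genes were lowest under PP2, lower than vehicle to a lesser degree under DAPT and TAE226, and near vehicle under U0126. Under PP2 55 of the 56 genes fell, where 26.9% of all genes tested were called lower (limma, Benjamini-Hochberg adjusted p under 0.05, 2-sided). The median gene changed by -1.38 on the log2 scale, a 2.6-fold lower signal, against a median of 0.02 over all genes. The fall was at least 2-fold for 47 of the 56 genes, against 5.31% of all genes. Under DAPT 46 genes fell and none rose, with 17.5% of all genes called lower, and the median was -0.65. Under TAE226 40 fell and none rose, with 15.9% of all genes called lower, and the median was -0.51. Under U0126 4 fell and 4 rose, where 21.3% of all genes were called lower and 19.4% higher, and the median was -0.02. The 4 comparisons share the same 3 vehicle arrays. In whole spheres, fewer dividing cells and less RNA per dividing cell cannot be told apart.

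Averaged over the 56 genes and set to the vehicle mean, the 3 PP2 arrays lay at -1.54, -1.23 and -1.32 on the log2 scale. The DAPT arrays lay at -0.58, -0.66 and -0.70, and the TAE226 arrays at -0.43, -0.44 and -0.53. The U0126 arrays, at 0.06, -0.09 and -0.04, overlapped the vehicle arrays, at -0.02, -0.04 and 0.06. All 3 PP2 arrays lay below every other array, and the DAPT and TAE226 arrays did not overlap either. PP2 had the lowest mean of the 5 groups for each of the 56 genes. For 50 of them all 3 PP2 arrays lay below the other 12 arrays, which held for 12.4% of all genes tested.

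**Figure D1:**
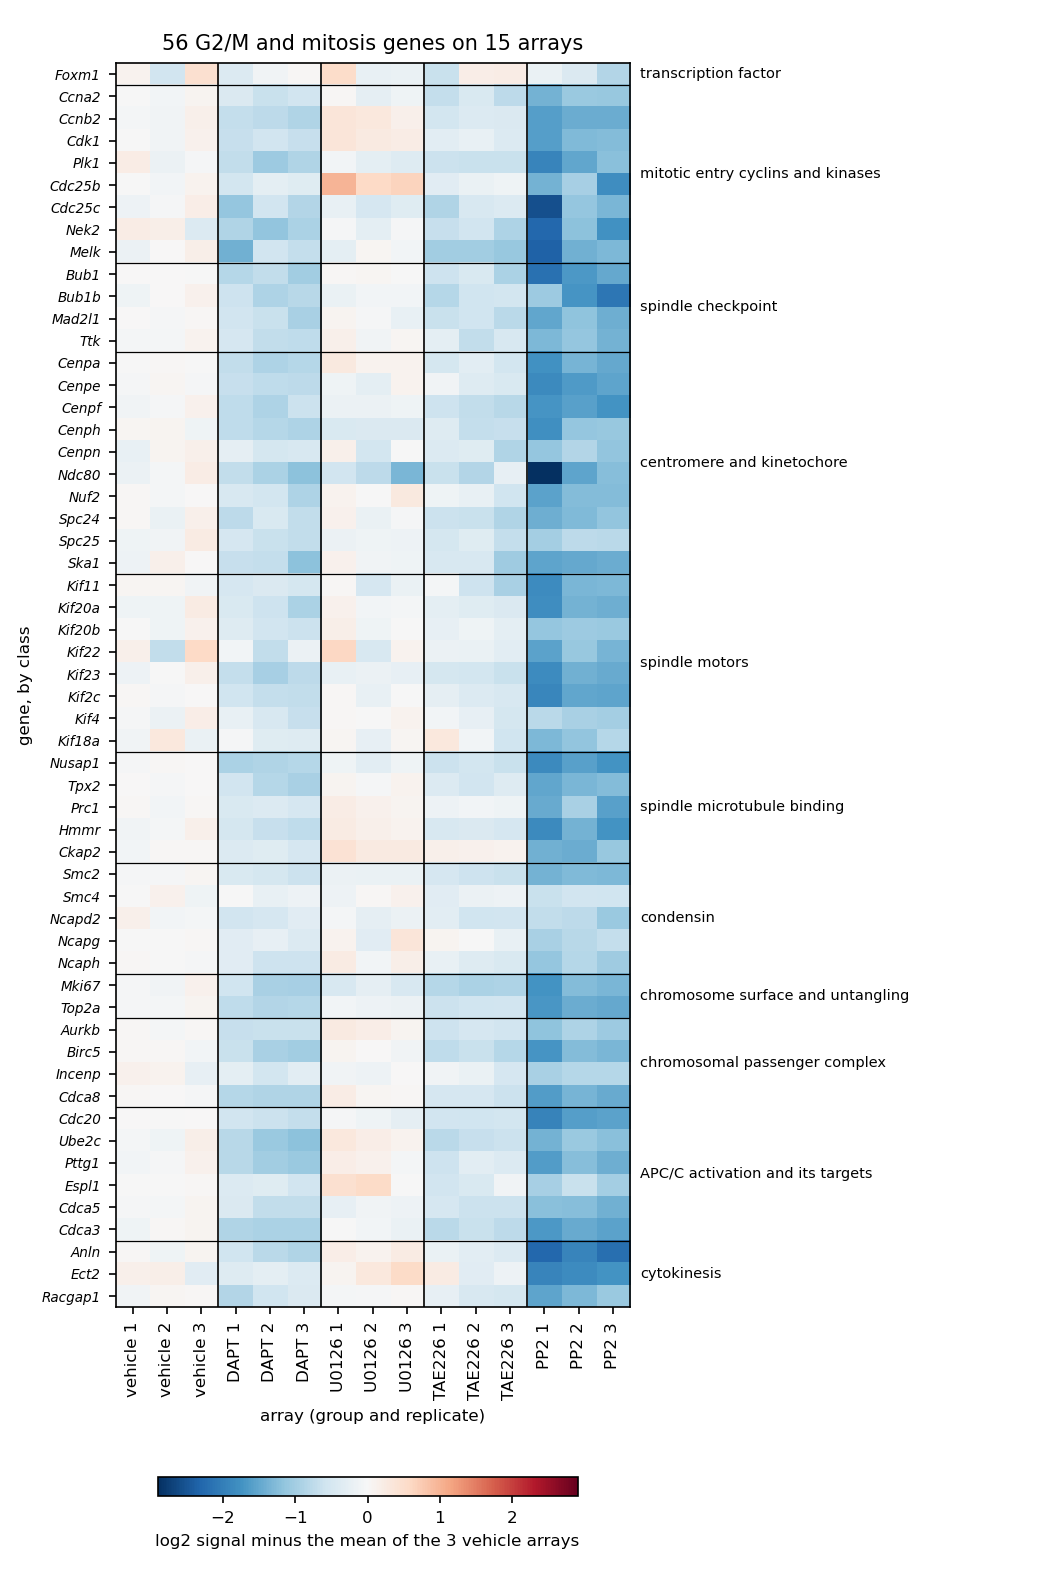
Log2 signal of the 56 genes (rows, by class) on the 15 arrays (columns), minus the mean of the 3 vehicle arrays; blue is lower and red is higher than vehicle. The PP2 columns are the darkest blue through nearly every class, DAPT and TAE226 are paler blue, and U0126 is close to white apart from single genes such as Cdc25b and Ndc80.

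The arrays were scaled by the authors to a common trimmed mean, and their medians ran from 66.0 to 91.0 signal units. Centring each array on its median moved all genes by -0.13 under DAPT, -0.08 under U0126, -0.25 under TAE226 and -0.22 under PP2 against vehicle. It changed the split of calls over all genes, from 2003 lower and 1928 higher to 2450 and 685 under DAPT, and from 1820 and 1722 to 4259 and 423 under TAE226. For U0126 the split went from 2442 and 2221 to 2419 and 1198, and for PP2 from 3084 and 2963 to 4369 and 1202. Under that scaling 52, 5, 50 and 56 of the mitotic genes were called under DAPT, U0126, TAE226 and PP2, again with none higher except 1 under U0126. The ratio of actin signal from the 3′ over the 5′ end, a measure of RNA integrity, was 1.57 ± 0.0381 (SD, n = 3) under PP2 against 1.42 ± 0.0604 in vehicle and between 1.28 and 1.35 in the other groups. Its part in the PP2 result was not tested. Luminal markers exceeded the median of every array (6 of 6), and their summed signal was 63709 to 66352 units in vehicle, 56853 to 59237 under DAPT, 60711 to 68333 under U0126, 62566 to 70315 under TAE226 and 65929 to 68310 under PP2. The DAPT arrays lay below all vehicle arrays, and the part of this in the DAPT result was not tested. By gene, Cdh1 and Elf5 had higher means under DAPT than in vehicle, and Epcam, Krt8, Krt18 and Krt19 lower ones. Of the basal markers 4 of 5 did so, with a sum of 14289 to 15098 in vehicle, 16385 to 17080 under DAPT, 17103 to 19682 under U0126, 12392 to 13538 under TAE226 and 11273 to 12375 under PP2, and its part was not tested. The sums are of linear signal, and single basal markers went both ways. Under DAPT the means of Krt5, Trp63 and Acta2 were above vehicle, and those of Krt14 and Krt17 below. Under U0126 Krt14 and Krt17 were above, and Krt5, Trp63 and Acta2 below. Under TAE226 and PP2 only Acta2 was above. No fibroblast (0 of 7), leukocyte (0 of 6) or endothelial marker (0 of 4) lay above the median on all arrays. On 3 or more of the 15 arrays, 1 fibroblast marker (Col1a2, on 4), 3 leukocyte markers and 1 endothelial marker (Kdr, on 6) did. The leukocyte markers were Csf1r (on 11), Adgre1 (on 7) and Cd68 (on 5). Scan batches are not given, and array order in the labels follows the groups, so the order and the group cannot be told apart.

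The promoters of the genes that moved together were searched for the 3 motifs of this control. RefSeq promoters (GRCm38.p6), 250 bases before to 50 after each start, were held for 46 of the 56 genes. On either strand, the CHR (TTTGAA or TTCGAA, the second of which reads the same on both strands) was present for 76.1% of these genes, against 15.8% of the genes tested with a promoter and 21.7% of all promoters' genes. Within 50 bases of the start it was present for 67.4%, against 4.25% and 6.12%. The NF-Y box (CCAAT) was present for 71.7% against 43% and 41.1%, and both motifs for 65.2% against 6.52% and 8.61%. The E2F site (TTTCCCGC or TTTGGCGC) was present for 6.52% of the mitotic genes, 3.53% of the genes tested and 37.5% of 24 DNA replication genes. Matches of different motifs can share a base and were counted for each motif. A match is a description of the sequence, not a shown binding site.

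Upstream stretches of 120 bases are given for 4 genes that hold both motifs and 1, Birc5, that holds neither in its window. They were chosen after the motif positions were known, to show how the motifs lie. Each runs 5′ to 3′ on the gene's strand and ends at the base before the start, with capitals marking the CHR and the NF-Y box on either strand. Cdk1 lies at chr10:69352913-69353032 (minus strand), Top2a at chr11:99024190-99024309 (minus), Kif11 at chr19:37376262-37376381 (plus), Ube2c at chr2:164769809-164769928 (plus) and Birc5 at chr11:117849117-117849236 (plus).
Cdk1: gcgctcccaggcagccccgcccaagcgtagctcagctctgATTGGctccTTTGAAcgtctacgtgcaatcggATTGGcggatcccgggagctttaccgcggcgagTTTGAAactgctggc
Top2a: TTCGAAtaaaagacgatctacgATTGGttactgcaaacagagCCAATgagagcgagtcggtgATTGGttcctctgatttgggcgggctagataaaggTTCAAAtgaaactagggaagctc
Kif11: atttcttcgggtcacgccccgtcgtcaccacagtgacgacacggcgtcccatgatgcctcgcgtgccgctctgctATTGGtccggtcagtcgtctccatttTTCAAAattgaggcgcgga
Ube2c: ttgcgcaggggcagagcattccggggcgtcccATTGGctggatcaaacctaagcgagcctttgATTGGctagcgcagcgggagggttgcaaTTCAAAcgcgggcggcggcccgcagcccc
Birc5: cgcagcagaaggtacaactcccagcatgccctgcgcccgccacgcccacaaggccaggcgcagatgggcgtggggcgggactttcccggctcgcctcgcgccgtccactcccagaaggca
In Kif11 the CHR lies 19 bases and the NF-Y box 45 bases before the start. In Ube2c the CHR lies 29 bases before the start. The values of these genes are given by class.

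**Figure D2:**
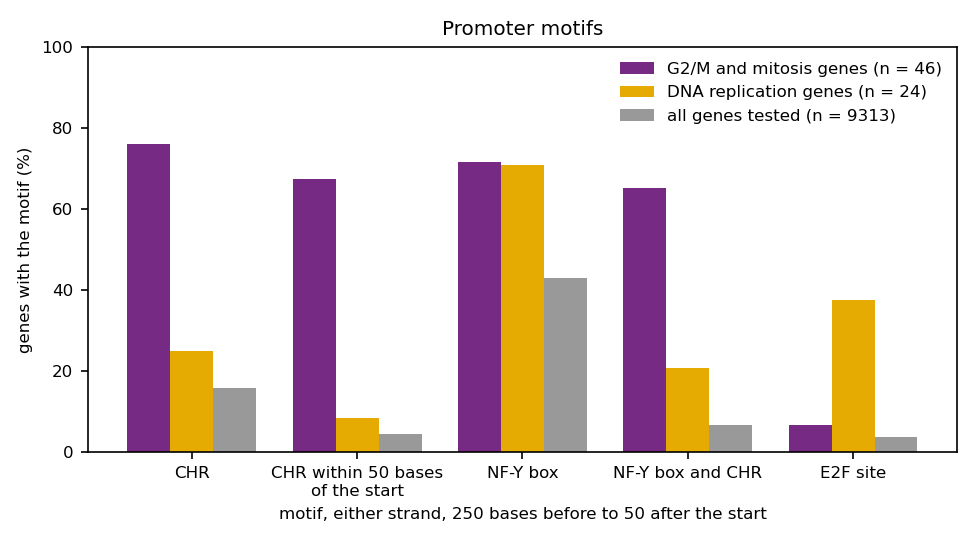
Percent of genes (y axis) whose promoter holds each motif (x axis), for the 46 mitotic genes, 24 DNA replication genes and all 9313 tested genes with a promoter. The CHR is present for 76.1% of the mitotic and 25% of the replication genes, and the NF-Y box for 71.7% and 70.8%.

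The cyclins and kinases of mitotic entry changed by a median of -0.81 under DAPT (7 of 8 lower), -0.60 under TAE226 (6 of 8) and -1.52 under PP2 (8 of 8). Cdk1, the kinase that drives entry into mitosis, had log2 signals of 11.02, 10.93 and 11.16 in vehicle, 10.37, 10.49 and 10.36 under DAPT, 11.39, 11.30 and 11.26 under U0126, 10.74, 10.82 and 10.64 under TAE226, and 9.43, 9.76 and 9.79 under PP2. All 5 groups were apart from one another on every array, with U0126 above vehicle and PP2 at the bottom. Against vehicle Cdk1 changed by -0.63 (SE 0.09, adjusted p = 3.79e-05) under DAPT, 0.28 (SE 0.09, adjusted p = 0.0178) under U0126, -0.30 (SE 0.09, adjusted p = 0.016) under TAE226 and -1.38 (SE 0.09, adjusted p = 1.38e-09) under PP2. Both smaller calls were lost in some settings. The U0126 value was 0.20 (adjusted p = 0.203) with array medians centred, and its adjusted p was 0.0505, 0.0835 and 0.0684 without vehicle replicate 1, vehicle replicate 2 and U0126 replicate 1. The TAE226 value had an adjusted p of 0.0745 without vehicle replicate 3 and 0.0739 without TAE226 replicate 3. Ccnb2, a B-type cyclin and partner of Cdk1, ran the same course, with -0.78 under DAPT, 0.26 (SE 0.08, adjusted p = 0.017) under U0126, -0.44 under TAE226 and -1.49 under PP2. Its rise under U0126 was no longer called without either of vehicle replicates 1 and 2 or U0126 replicates 1 and 2, or with medians centred, with adjusted p up to 0.206.

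Plk1, the kinase of centrosome maturation and chromosome separation, had log2 signals of 9.30, 8.92 and 9.06 in vehicle, 8.38, 8.05 and 8.21 under DAPT, 9.01, 8.82 and 8.73 under U0126, 8.48, 8.45 and 8.44 under TAE226, and 7.18, 7.58 and 7.87 under PP2. U0126 overlapped vehicle, and the other 3 groups lay below both and apart from one another. Plk1 fell by 0.88 under DAPT (SE 0.15, adjusted p = 0.000215), by 0.64 under TAE226 (SE 0.15, adjusted p = 0.00344) and by 1.55 under PP2 (SE 0.15, adjusted p = 1.96e-07). Cdc25b, the phosphatase that starts Cdk1 activation, was the member that rose most under U0126. Its log2 signals were 8.07, 8.00 and 8.20 in vehicle, 7.55, 7.81 and 7.75 under DAPT, 9.08, 8.66 and 8.73 under U0126, 7.76, 7.90 and 7.96 under TAE226, and 6.72, 7.12 and 6.30 under PP2. All 3 U0126 arrays lay above all vehicle arrays, the change was 0.73 (SE 0.17, adjusted p = 0.00259), and it was the 1 call of the 8 under U0126 that held in all 24 settings tried. Cdc25b was lower than vehicle on all DAPT and TAE226 arrays, but neither difference passed (-0.39, SE 0.17, adjusted p = 0.0919 and -0.22, SE 0.17, adjusted p = 0.363), and it fell by 1.38 under PP2. With medians centred both passed, at -0.52 (adjusted p = 0.0149) and -0.47 (adjusted p = 0.0188). Cdc25c, a related phosphatase, changed by -1.66 (SE 0.29, adjusted p = 0.000131) under PP2 and -0.84 (SE 0.29, adjusted p = 0.032) under DAPT, the second lost in 6 settings, among them without vehicle replicates 2 or 3 or DAPT replicates 1 or 3, with adjusted p up to 0.115. Nek2, a centrosome kinase, had the greatest fall of the class under DAPT (-0.98) and PP2 (-1.74, SE 0.21, adjusted p = 3.56e-06), and Melk, a kinase high in dividing cells, under TAE226 (-1.04, SE 0.23, adjusted p = 0.00267). Ccna2, cyclin A2, changed by -0.54, -0.62 and -1.18 under DAPT, TAE226 and PP2.

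**Figure D3:**
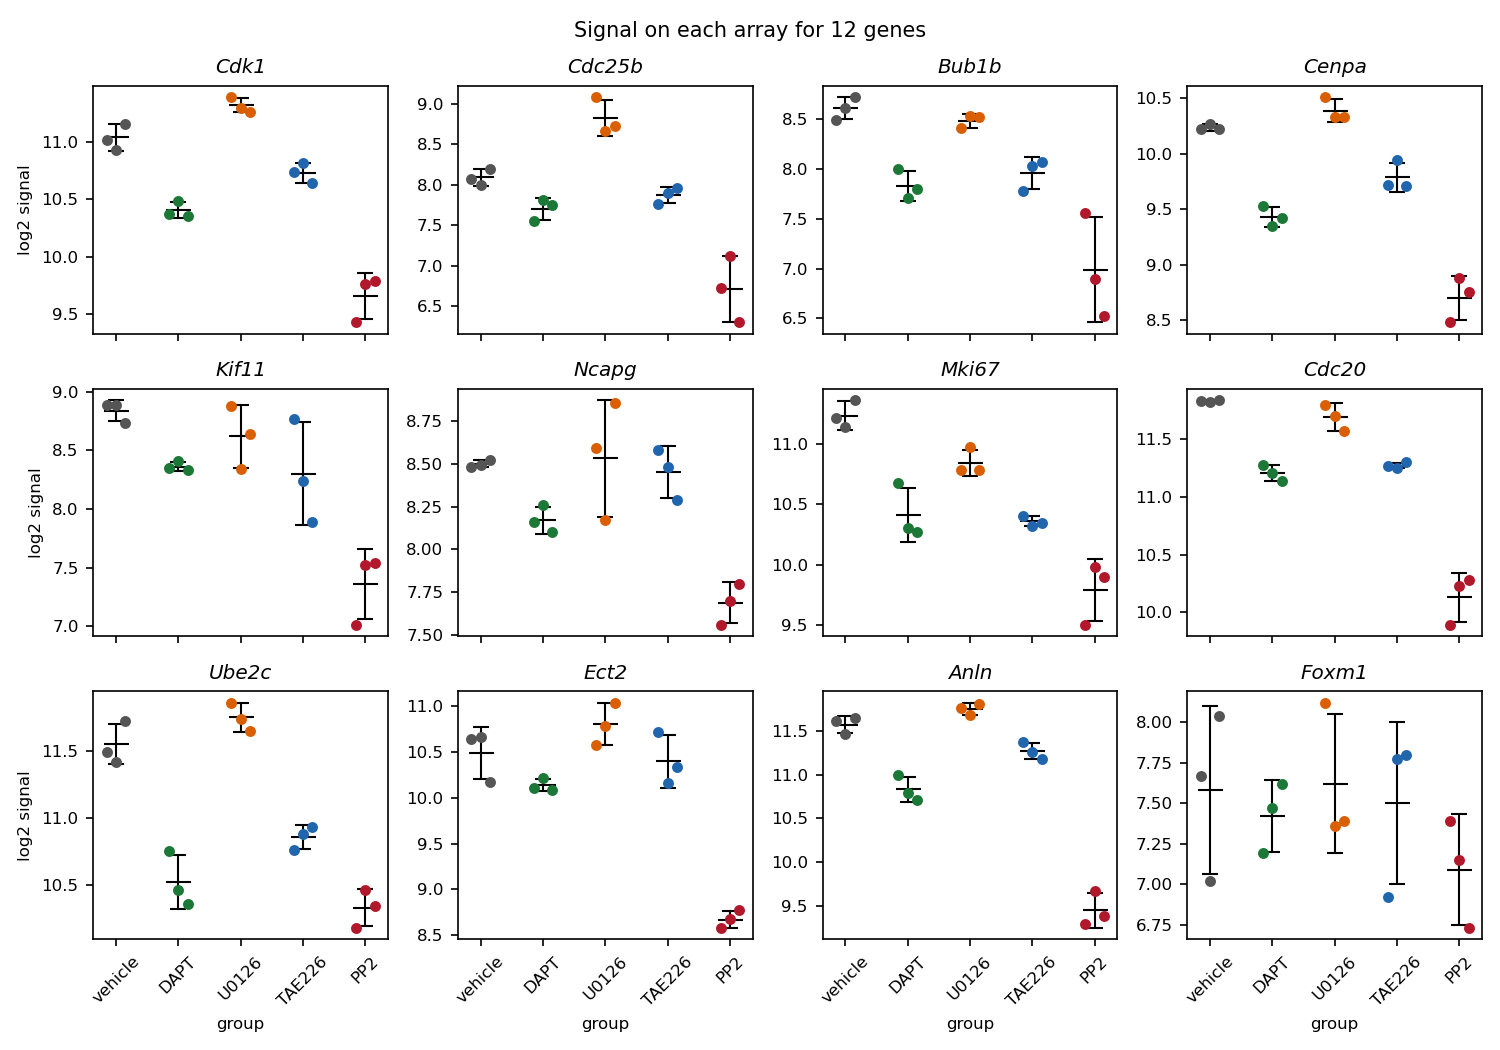
Log2 signal (y axis) on each of the 15 arrays by group (x axis) for 12 genes; points are arrays, and bars are the mean and SD of 3 arrays. PP2 has the lowest mean in each panel, and U0126 lies above vehicle on all arrays for Cdk1, Cdc25b, Cenpa and Anln. Foxm1 shows spread within groups as wide as the differences between them.

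The spindle checkpoint, which holds anaphase until every chromosome is attached, had 4 of 4 genes lower under each of DAPT, TAE226 and PP2 (medians -0.74, -0.65 and -1.49) and 0 of 4 called under U0126. Bub1b, which encodes the checkpoint protein BUBR1, had log2 signals of 8.49, 8.61 and 8.72 in vehicle, 8.00, 7.71 and 7.80 under DAPT, 8.41, 8.53 and 8.52 under U0126, 7.78, 8.03 and 8.07 under TAE226, and 7.56, 6.90 and 6.52 under PP2. The PP2 arrays were the lowest and the most spread, and DAPT and TAE226 overlapped each other but not vehicle. Bub1b changed by -0.77 (SE 0.19, adjusted p = 0.00453) under DAPT, -0.65 (SE 0.19, adjusted p = 0.0154) under TAE226 and -1.61 (SE 0.19, adjusted p = 2.04e-06) under PP2. The TAE226 call was lost without vehicle replicate 3 (-0.59, adjusted p = 0.0517) or TAE226 replicate 1 (-0.56, adjusted p = 0.0631), and with all probe sets averaged (-0.33). Bub1, its kinase relative at the kinetochore, fell most of the class under PP2, by 1.77 (SE 0.15, adjusted p = 3.2e-08), and by 0.85 under DAPT. Mad2l1, the checkpoint's inhibitor of Cdc20, changed by -0.67 (SE 0.10, adjusted p = 0.000125) under TAE226, the greatest fall of the class there. Ttk, the kinase MPS1 that starts the checkpoint signal, changed by -0.65, -0.49 and -1.27 under DAPT, TAE226 and PP2. The Ttk calls under DAPT and TAE226 were lost when it was averaged with its other probe set, which was never above the array median (adjusted p of 0.874 and 0.808).

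Of the 10 centromere and kinetochore genes, 9 fell under DAPT, 8 under TAE226 and 10 under PP2, with medians of -0.74, -0.56 and -1.42. Cenpa, the histone variant that marks the centromere, had log2 signals of 10.22, 10.27 and 10.22 in vehicle, 9.53, 9.35 and 9.42 under DAPT, 10.51, 10.33 and 10.33 under U0126, 9.72, 9.94 and 9.71 under TAE226, and 8.48, 8.88 and 8.75 under PP2. The 5 groups did not overlap, in the order U0126, vehicle, TAE226, DAPT and PP2. Against vehicle Cenpa changed by -0.81 (SE 0.09, adjusted p = 4.77e-06) under DAPT, -0.45 (SE 0.09, adjusted p = 0.00163) under TAE226 and -1.54 (SE 0.09, adjusted p = 7.11e-10) under PP2, while the U0126 difference, 0.15 (SE 0.09, adjusted p = 0.209), did not pass. Averaged with its 2 other probe sets, 1 of them never above the array median, Cenpa stood at 0.09 under TAE226 (adjusted p = 0.821) and -0.63 under DAPT (adjusted p = 0.0862).

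Ndc80, the microtubule-binding core of the outer kinetochore, had log2 signals of 7.77, 7.89 and 8.16 in vehicle, 7.23, 7.02 and 6.76 under DAPT, 7.39, 7.19 and 6.61 under U0126, 7.29, 7.08 and 7.70 under TAE226, and 5.06, 6.42 and 6.71 under PP2. It was lower than vehicle on every treated array, U0126 included, and PP2 replicate 1 stood below all others. Ndc80 changed by -0.93 (SE 0.33, adjusted p = 0.0381) under DAPT, -0.88 (SE 0.33, adjusted p = 0.044) under U0126 and -1.87 (SE 0.33, adjusted p = 0.000157) under PP2, and the TAE226 difference, -0.58 (SE 0.33, adjusted p = 0.204), missed the threshold. Its DAPT and U0126 calls were weak. The U0126 call failed in 13 of 24 settings (adjusted p up to 0.173), among them leaving out any vehicle array, any DAPT array, U0126 replicates 2 or 3, or TAE226 replicate 1. The DAPT call failed in 9 settings (adjusted p up to 0.129), among them leaving out any vehicle array or DAPT replicates 2 or 3. Its partner in the NDC80 complex, Nuf2, did not share the low U0126 signal (0.12, SE 0.13, adjusted p = 0.5), nor did Spc24 (-0.03) or Spc25 (-0.15), the other 2 subunits. Under PP2 the 4 subunits changed by -1.87, -1.35, -1.27 and -0.84. Ndc80 was not above the array median on 2 of the 3 PP2 arrays. The other Spc25 probe set, above the median on all 15 arrays, stood at -0.02 under PP2, 0.14 under DAPT and 0.48 under TAE226. Averaged, Spc25 stood at -0.43 under PP2.

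Cenph, of the inner kinetochore, was the other gene of the class lower under U0126 (-0.44, SE 0.17, adjusted p = 0.0458), and the call failed in 12 of 24 settings, with adjusted p up to 0.124. Those included leaving out vehicle replicates 1 or 2, any DAPT array, any U0126 array, or TAE226 replicates 2 or 3. Cenpe, the kinetochore motor that carries chromosomes to the spindle equator, changed by -0.72 (SE 0.11, adjusted p = 7.34e-05) under DAPT, -0.31 (SE 0.11, adjusted p = 0.0381) under TAE226 and -1.67 (SE 0.11, adjusted p = 1.53e-09) under PP2. The Cenpe call under TAE226 failed in 8 settings (adjusted p up to 0.157), among them without any 1 vehicle array or TAE226 replicates 2 or 3. Cenpf, a large protein of the outer kinetochore, changed by -0.75, -0.71 (SE 0.09, adjusted p = 1.3e-05) and -1.67 under DAPT, TAE226 and PP2, and shared with Spc24 (-0.71) the greatest fall of the class under TAE226. Cenpn, a reader of the Cenpa nucleosome, was called under TAE226 (-0.54) and PP2 (-1.03) and missed the threshold under DAPT (-0.41, SE 0.17, adjusted p = 0.0677). The Cenpn call under TAE226 failed in 4 settings (adjusted p up to 0.249), including without vehicle replicates 2 or 3 or TAE226 replicate 3. Ska1, which holds kinetochores to shrinking microtubules, was the only gene of the 56 that no array of a group placed above its median, which was the case under PP2. Taking the higher of the median and its own signal there, it fell at least 1.99-fold.

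The 8 spindle motors, kinesins that slide, carry or shorten microtubules, had a median of -0.50 under DAPT (5 lower), -0.32 under TAE226 (3 lower), -0.03 under U0126 (0 called) and -1.40 under PP2 (8 lower). Kif11, the motor Eg5 that pushes spindle poles apart, had log2 signals of 8.89, 8.89 and 8.73 in vehicle, 8.35, 8.41 and 8.33 under DAPT, 8.88, 8.34 and 8.64 under U0126, 8.77, 8.24 and 7.89 under TAE226, and 7.01, 7.52 and 7.54 under PP2. The DAPT arrays lay below vehicle without overlap, the TAE226 arrays ran from within the vehicle range to well below it, and PP2 lay below all. Kif11 changed by -1.48 (SE 0.19, adjusted p = 6.03e-06) under PP2, and the DAPT difference, -0.47 (SE 0.19, adjusted p = 0.0652), missed the threshold. It passed with medians centred (-0.61, adjusted p = 0.0232) and with probe sets averaged (-0.55, adjusted p = 0.0101). Its TAE226 change, -0.54 (SE 0.19, adjusted p = 0.0417), passed but was lost in 11 of 24 settings, with adjusted p up to 0.216 (without TAE226 replicate 3, where it was -0.33). Leaving out any vehicle array, any DAPT array or TAE226 replicate 2 also ended that call.

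Kif23, the centralspindlin motor of cell cleavage, fell most of the motors under DAPT (-0.81, SE 0.11, adjusted p = 3.45e-05) and TAE226 (-0.57, SE 0.11, adjusted p = 0.000999), and changed by -1.56 under PP2. With its probe sets averaged, 1 of them never above the array median, the 3 Kif23 calls were lost (adjusted p of 0.233, 0.208 and 0.0679). Kif2c, which takes microtubules apart at the centromere, fell most under PP2 (-1.64, SE 0.10, adjusted p = 4.67e-10), with -0.66 under DAPT and -0.37 under TAE226. Its other probe sets above the median on all 15 arrays stood at -1.36 and 0.15 under PP2. They stood at -0.62 and 0.02 under DAPT and at -0.47 and 0.23 under TAE226. Averaged over its probe sets, Kif2c stood at -0.89 under PP2, where Kif20a stood at -1.54. Kif20a and Kif20b, motors of the late spindle, changed by -1.54 and -1.08 under PP2 and by -0.66 and -0.52 under DAPT. Kif4, a chromosome-borne motor, had the smallest change of the class under PP2 (-0.90, SE 0.14, adjusted p = 3.97e-05). Kif22 and Kif18a, which push and settle chromosomes at the equator, were called under PP2 only (-1.33 and -1.09). Kif22 had an SE of 0.27. It was read from an _x_at probe set, a type marked as open to cross-hybridisation. From the brighter of its 2 others, of the _s_at type, it was called under DAPT (-0.62, adjusted p = 0.0025) and TAE226 (-0.55, adjusted p = 0.00596). The _s_at type can also match other genes.

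The microtubule-binding proteins of the spindle had 5 of 5 genes lower under DAPT and PP2 (medians -0.64 and -1.36) and 3 of 5 under TAE226 (median -0.45). Tpx2, which activates Aurora A on the spindle, had log2 signals of 9.08, 9.04 and 9.07 in vehicle, 8.50, 8.23 and 8.12 under DAPT, 9.15, 9.02 and 9.16 under U0126, 8.66, 8.50 and 8.69 under TAE226, and 7.56, 7.74 and 7.81 under PP2. Vehicle and U0126 overlapped, DAPT and TAE226 lay below them and met at 8.50, and PP2 was lowest. Tpx2 changed by -0.78 (SE 0.10, adjusted p = 2.04e-05) under DAPT, -0.45 (SE 0.10, adjusted p = 0.00329) under TAE226 and -1.36 (SE 0.10, adjusted p = 1.16e-08) under PP2, and by -0.06 under TAE226 when its probe sets were averaged. Nusap1, which bundles microtubules around chromosomes, fell most of the class under DAPT, TAE226 and PP2 (-0.87, SE 0.08, adjusted p = 1.44e-07, -0.61, SE 0.08, adjusted p = 1.24e-05 and -1.72, SE 0.08, adjusted p = 1.29e-11).

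Ckap2, a spindle-associated protein and a target of the APC/C, departed from its class. Its log2 signals were 10.57, 10.67 and 10.68 in vehicle, 10.25, 10.29 and 10.15 under DAPT, 11.06, 10.91 and 10.91 under U0126, 10.79, 10.76 and 10.74 under TAE226, and 9.25, 9.20 and 9.55 under PP2. U0126 and TAE226 lay above all vehicle arrays, while DAPT and PP2 lay below them, in the authors' scaling. The rise under U0126, 0.31 (SE 0.08, adjusted p = 0.0044), passed and was lost only with medians centred (adjusted p = 0.158), whereas the TAE226 difference, 0.12 (SE 0.08, adjusted p = 0.263), did not pass and had the opposite sign with medians centred. Ckap2 fell under DAPT (-0.41) and PP2 (-1.31). Prc1, which bundles the central spindle, was not called under TAE226 (-0.11, SE 0.12, adjusted p = 0.492, and -0.37 with adjusted p = 0.0132 when medians were centred) and changed by -0.44 under DAPT and -1.33 under PP2. Hmmr, a spindle and hyaluronan-binding protein, changed by -0.64, -0.46 and -1.65 under DAPT, TAE226 and PP2. Its other probe sets, above the median on 15, 15, 12 and 6 arrays, stood at -0.05, 0.09, 0.20 and 0.27 under TAE226. Averaged, Hmmr stood at 0.01 there (adjusted p = 0.959).

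Condensin, the ring complex that compacts chromosomes, had the smallest median change of the classes with more than 1 gene under DAPT and PP2, read from the probe sets used. The medians of its 5 genes were -0.45 under DAPT (3 lower), -0.35 under TAE226 (4 lower), 0.01 under U0126 (1 lower) and -0.85 under PP2 (5 lower). Under PP2 the per-array means of the 5 genes were -0.96, -0.84 and -0.93 relative to vehicle, and those of the 3 cytokinesis genes were -1.91, -1.67 and -1.66. The difference between classes is given without a test. With probe sets averaged, the middle condensin gene under PP2, Ncaph, stood at -1.02. The middle spindle motor of those tested there, Kif23, stood at -0.97, so the rank under PP2 did not hold. Averaged under DAPT, the middle condensin gene, Smc2, stood at -0.37. The middle cytokinesis gene, Ect2, which has 1 probe set, stood at -0.35, so the rank under DAPT did not hold either. Ncapg, a subunit of condensin I, had log2 signals of 8.48, 8.49 and 8.52 in vehicle, 8.16, 8.26 and 8.10 under DAPT, 8.59, 8.17 and 8.85 under U0126, 8.58, 8.48 and 8.29 under TAE226, and 7.56, 7.70 and 7.80 under PP2. U0126 spread on both sides of vehicle, TAE226 overlapped it, DAPT lay below it and PP2 lay lowest. Ncapg changed by -0.81 (SE 0.14, adjusted p = 0.00012) under PP2 and missed the threshold under DAPT (-0.32, SE 0.14, adjusted p = 0.0829) and TAE226 (-0.05, SE 0.14, adjusted p = 0.831). Without U0126 replicate 2 or 3, or with medians centred, the DAPT change passed (adjusted p of 0.0287, 0.0464 and 0.0318), and averaged over its probe sets Ncapg passed under DAPT (-0.50) and TAE226 (-0.32). Under PP2 its other probe set, above the median on all 15 arrays, stood at -1.47, and the average at -1.14.

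Smc2, the ATPase core of condensin, fell most of the class in each of DAPT (-0.53, SE 0.06, adjusted p = 4.91e-06), TAE226 (-0.58, SE 0.06, adjusted p = 2.42e-06) and PP2 (-1.32, SE 0.06, adjusted p = 2.8e-11). It was also lower under U0126, -0.18 (SE 0.06, adjusted p = 0.0251), a call lost with quantile normalization, with averaged probe sets, and without vehicle replicate 3 or any of the U0126 arrays (adjusted p up to 0.887). Smc4, its partner in the core, changed by -0.59 (SE 0.08, adjusted p = 7.98e-06) under PP2, the smallest called change of all 56 genes there, and was not called under DAPT (-0.12, SE 0.08, adjusted p = 0.257). The Smc4 call under TAE226 (-0.22, SE 0.08, adjusted p = 0.0431) failed in 12 of 24 settings. Ncapd2 and Ncaph, the other subunits of condensin I listed, changed by -0.85 and -0.99 under PP2, by -0.45 and -0.50 under DAPT and by -0.47 and -0.35 under TAE226.

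**Figure D4:**
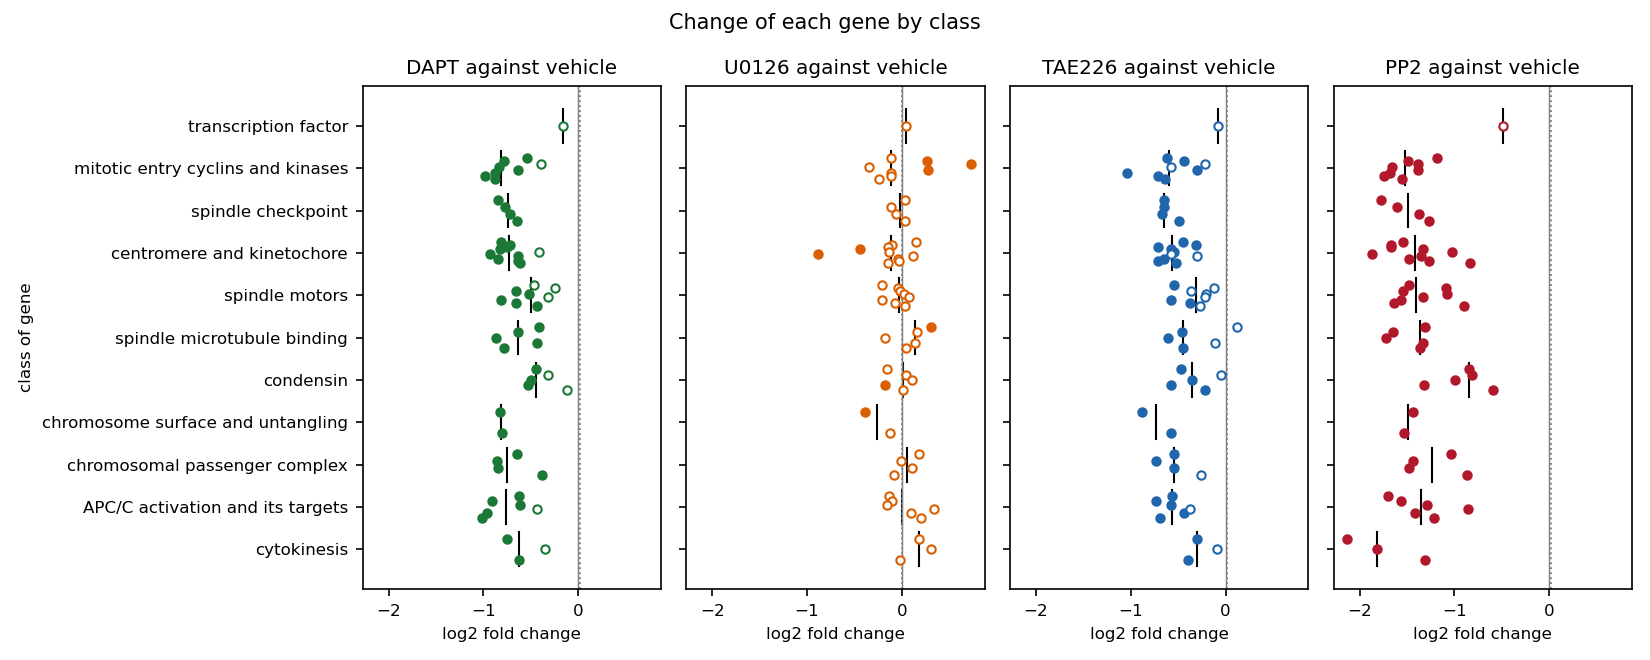
Log2 fold change of each gene against vehicle (x axis) by class (y axis) under the 4 inhibitors; filled points passed the threshold, open points did not, the black bar is the class median and the dotted line the median of all genes. Every class median lies left of 0 under DAPT, TAE226 and PP2, condensin lies closest to 0 among the larger classes under PP2 (-0.85), and U0126 is centred near 0 (-0.02 over the 56 genes).

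Mki67 and Top2a, the coat protein of mitotic chromosomes and the enzyme that untangles their DNA, both fell under DAPT, TAE226 and PP2. Mki67, the source of the Ki-67 antigen, had log2 signals of 11.21, 11.14 and 11.36 in vehicle, 10.67, 10.30 and 10.27 under DAPT, 10.78, 10.97 and 10.78 under U0126, 10.40, 10.32 and 10.34 under TAE226, and 9.50, 9.98 and 9.90 under PP2. All treated arrays lay below all vehicle arrays, with U0126 nearest to vehicle and PP2 farthest. Mki67 changed by -0.82 (SE 0.12, adjusted p = 4.17e-05) under DAPT, -0.39 (SE 0.12, adjusted p = 0.0135) under U0126, -0.88 (SE 0.12, adjusted p = 2.48e-05) under TAE226 and -1.44 (SE 0.12, adjusted p = 2.6e-08) under PP2. The U0126 call was lost without vehicle replicate 3 (-0.33, adjusted p = 0.0579).

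Top2a had log2 signals of 10.95, 10.94 and 11.07 in vehicle, 10.24, 10.14 and 10.16 under DAPT, 10.91, 10.85 and 10.81 under U0126, 10.36, 10.42 and 10.43 under TAE226, and 9.31, 9.54 and 9.51 under PP2. The 5 groups did not overlap, with U0126 just below vehicle and PP2 lowest. Top2a changed by -0.80 (SE 0.07, adjusted p = 7.5e-08) under DAPT, -0.58 (SE 0.07, adjusted p = 4.56e-06) under TAE226 and -1.53 (SE 0.07, adjusted p = 1.01e-11) under PP2, with the smallest adjusted p of the 56 genes under DAPT and PP2, and the U0126 difference, -0.13 (SE 0.07, adjusted p = 0.128), did not pass. Of its 2 other probe sets, 1 was never above the array median, and the other stood at -0.43 under DAPT, 0.03 under TAE226 and -0.42 under PP2. Averaged over the 3, Top2a stood at -0.19 (adjusted p = 0.597), 0.06 (adjusted p = 0.886) and -0.43 (adjusted p = 0.157) under DAPT, TAE226 and PP2.

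The chromosomal passenger complex, which corrects faulty attachments and later guides cleavage, had 4 of 4 genes lower under DAPT and PP2 (medians -0.75 and -1.24) and 3 of 4 under TAE226 (median -0.54). Aurkb, its kinase Aurora B, had log2 signals of 8.79, 8.70 and 8.79 in vehicle, 8.10, 8.11 and 8.11 under DAPT, 9.03, 8.95 and 8.85 under U0126, 8.17, 8.27 and 8.21 under TAE226, and 7.59, 7.87 and 7.71 under PP2. The groups did not overlap, and U0126 lay highest, though its difference from vehicle did not pass (0.18, SE 0.09, adjusted p = 0.119). Aurkb changed by -0.65 (SE 0.09, adjusted p = 3.07e-05) under DAPT, -0.54 (SE 0.09, adjusted p = 0.000229) under TAE226 and -1.04 (SE 0.09, adjusted p = 6.17e-08) under PP2. Read from its other probe set, of the _s_at type rather than the _x_at type used, Aurkb stood at -0.28 under TAE226 and was not called (adjusted p = 0.126).

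Birc5, which encodes survivin, the subunit that brings the complex to the centromere, had log2 signals of 12.02, 12.01 and 11.90 in vehicle, 11.33, 11.04 and 10.97 under DAPT, 12.05, 11.99 and 11.87 under U0126, 11.24, 11.33 and 11.16 under TAE226, and 10.26, 10.71 and 10.65 under PP2. Vehicle and U0126 shared a range, DAPT and TAE226 shared a lower one, and PP2 was lowest. Birc5 changed by -0.86 (SE 0.10, adjusted p = 7.9e-06) under DAPT, -0.73 (SE 0.10, adjusted p = 5.26e-05) under TAE226 and -1.44 (SE 0.10, adjusted p = 6.76e-09) under PP2. Cdca8, the subunit borealin, changed by -0.85 (SE 0.07, adjusted p = 8.21e-08), -0.54 and -1.48 (SE 0.07, adjusted p = 3.48e-11) under DAPT, TAE226 and PP2. Incenp, the scaffold of the complex, changed by -0.38 under DAPT and -0.87 under PP2, and stood at -0.26 under TAE226, which was not called. Incenp was called under TAE226 with medians centred (-0.52, adjusted p = 0.00519), from another probe set (-0.28, adjusted p = 0.0217), without vehicle replicate 3 (adjusted p = 0.0103) and without TAE226 replicate 1 (adjusted p = 0.0382). The Incenp call under DAPT was lost in 5 settings, among them without vehicle replicates 1 or 2 or DAPT replicate 2, and with another probe set (adjusted p up to 0.954).

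The APC/C class held genes that switch the complex on or are destroyed by it, and Espl1, whose product is held back by such a target. The medians were -0.76 under DAPT (5 of 6 lower), -0.56 under TAE226 (5 of 6) and -1.35 under PP2 (6 of 6), with 0 of 6 called under U0126. Cdc20, the activator that turns the APC/C on at anaphase, had log2 signals of 11.83, 11.82 and 11.84 in vehicle, 11.28, 11.21 and 11.14 under DAPT, 11.80, 11.70 and 11.57 under U0126, 11.27, 11.25 and 11.30 under TAE226, and 9.89, 10.23 and 10.28 under PP2. U0126 lay just below vehicle, DAPT and TAE226 lay lower and overlapped each other, and PP2 lay below every other array. Cdc20 changed by -0.62 (SE 0.08, adjusted p = 2.21e-05) under DAPT, -0.56 (SE 0.08, adjusted p = 8.16e-05) under TAE226 and -1.70 (SE 0.08, adjusted p = 4.84e-11) under PP2, the greatest fall of the class under PP2, and the U0126 difference, -0.14 (SE 0.08, adjusted p = 0.191), did not pass. Averaged with its 2 other probe sets, Cdc20 stood at -0.24 under DAPT (adjusted p = 0.472) and -0.29 under TAE226 (adjusted p = 0.359).

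Ube2c, the enzyme that loads ubiquitin for the APC/C, had log2 signals of 11.49, 11.42 and 11.72 in vehicle, 10.75, 10.46 and 10.36 under DAPT, 11.86, 11.74 and 11.65 under U0126, 10.76, 10.88 and 10.93 under TAE226, and 10.18, 10.46 and 10.34 under PP2. U0126 overlapped vehicle, TAE226 lay below both, and DAPT and PP2 overlapped each other at the bottom. Ube2c changed by -1.02 (SE 0.10, adjusted p = 7.53e-07) under DAPT, the greatest fall of the 56 genes there, -0.69 (SE 0.10, adjusted p = 7e-05) under TAE226 and -1.22 (SE 0.10, adjusted p = 3.61e-08) under PP2. DAPT and PP2 differed by 0.19 (SE 0.10, adjusted p = 0.144), DAPT being the higher, which did not pass, although DAPT was called higher than PP2 for 52 genes. Pttg1, securin, the inhibitor destroyed at anaphase, changed by -0.96 (SE 0.10, adjusted p = 1.65e-06), -0.44 and -1.42 under DAPT, TAE226 and PP2. Espl1, separase, the protease that securin holds back, was called under PP2 only (-0.86, SE 0.18, adjusted p = 0.000667), and with medians centred also under DAPT (-0.58, adjusted p = 0.0263) and TAE226 (-0.63, adjusted p = 0.0118). Cdca3, a trigger of mitotic entry, changed by -0.91, -0.73 (SE 0.08, adjusted p = 2.57e-06) and -1.56, the greatest fall of the class under TAE226. Cdca5, sororin, which protects cohesion, changed by -0.61, -0.57 and -1.29.

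The 3 cytokinesis genes had the largest class median under PP2, -1.82, with 3 of 3 lower. Anln, anillin, the scaffold of the contractile ring, had log2 signals of 11.61, 11.46 and 11.65 in vehicle, 10.99, 10.79 and 10.71 under DAPT, 11.76, 11.68 and 11.81 under U0126, 11.37, 11.26 and 11.18 under TAE226, and 9.29, 9.67 and 9.39 under PP2. The 5 groups did not overlap, with U0126 highest. Anln fell by 2.13 under PP2 (SE 0.09, adjusted p = 1.2e-11), the greatest fall of the 56 genes, and fell by 0.75 under DAPT (SE 0.09, adjusted p = 9.45e-06). The TAE226 change, -0.30 (SE 0.09, adjusted p = 0.019), was lost without vehicle replicates 1 or 3 or TAE226 replicate 3, and with averaged probe sets, with adjusted p up to 0.301. Ect2, the exchange factor that turns on RhoA for cleavage, had log2 signals of 10.64, 10.67 and 10.17 in vehicle, 10.11, 10.22 and 10.09 under DAPT, 10.58, 10.79 and 11.04 under U0126, 10.72, 10.16 and 10.34 under TAE226, and 8.58, 8.68 and 8.77 under PP2. DAPT, U0126 and TAE226 each overlapped vehicle, DAPT and U0126 did not overlap each other, and the 3 PP2 arrays lay below all others. Ect2 fell under PP2 (-1.82, SE 0.14, adjusted p = 2.15e-08), with -0.35 (SE 0.14, adjusted p = 0.073) under DAPT, 0.31 (SE 0.14, adjusted p = 0.0951) under U0126 and -0.09 (SE 0.14, adjusted p = 0.698) under TAE226. The DAPT change passed without vehicle replicate 3 (-0.51, adjusted p = 0.0101), without TAE226 replicate 1 (adjusted p = 0.0411) and with medians centred (adjusted p = 0.0433), and the U0126 change without U0126 replicate 1 (0.43, adjusted p = 0.0409). Racgap1, the partner of Kif23 in centralspindlin, changed by -0.62 (SE 0.12, adjusted p = 0.00108), -0.40 (SE 0.12, adjusted p = 0.0216) and -1.31 (SE 0.12, adjusted p = 1.95e-07) under DAPT, TAE226 and PP2. Its DAPT call failed with probe sets averaged (0.03, adjusted p = 0.955), where 1 of its 3 probe sets was never above the array median. Its TAE226 call failed in 5 settings (adjusted p up to 0.764), among them without vehicle replicates 2 or 3 or TAE226 replicates 2 or 3.

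Foxm1, the transcription factor of these genes, was the 1 member called in no comparison. Its log2 signals were 7.67, 7.02 and 8.04 in vehicle, 7.19, 7.47 and 7.62 under DAPT, 8.12, 7.36 and 7.39 under U0126, 6.92, 7.77 and 7.80 under TAE226, and 7.39, 7.15 and 6.73 under PP2. Vehicle alone ran from 7.02 to 8.04, and every group overlapped it. The differences were -0.16 (SE 0.29, adjusted p = 0.719), 0.04 (SE 0.29, adjusted p = 0.928), -0.08 (SE 0.29, adjusted p = 0.854) and -0.49 (SE 0.29, adjusted p = 0.165) under DAPT, U0126, TAE226 and PP2, with an SE well above the median of 0.11 over the 56 genes. Without vehicle replicate 2 the PP2 value was -0.77 (adjusted p = 0.039), and with medians centred -0.71 (adjusted p = 0.0197). The other 55 genes passed an F-test over the 5 groups, as did 72.9% of all genes tested.

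Direct comparisons between inhibitors do not use the vehicle arrays as a reference. PP2 was called lower than TAE226 for 55 genes (23.3% of all genes were called higher under TAE226) and lower than U0126 for 55 (27.9%), with median differences of 0.93 and 1.40. PP2 was called lower than DAPT for 52 genes, where 21.7% of all genes were called higher under DAPT, with a median difference of 0.70. The 4 not called, though also lower in mean under PP2, were Foxm1, Spc25 (0.23, SE 0.11, adjusted p = 0.0976), Espl1 (0.42, SE 0.18, adjusted p = 0.0734) and Ube2c. The largest differences between DAPT and PP2 were in cytokinesis, at 1.47 (SE 0.14, adjusted p = 5.41e-07) for Ect2 and 1.38 (SE 0.09, adjusted p = 4.33e-09) for Anln. DAPT was called lower than U0126 for 46 genes (21.6% of all genes), with a median of -0.63, and TAE226 lower than U0126 for 40 (17.7%), with a median difference of 0.42. With probe sets averaged, the last count was 22. Centring medians also moved the split of lower and higher calls over all genes, from 2481 and 2646 to 2210 and 1590 for DAPT against U0126, and from 2057 and 2491 to 1050 and 2397 for DAPT against PP2. For U0126 it went from 2219 and 2031 to 768 and 2979 against TAE226, and from 3177 and 3203 to 1788 and 3690 against PP2.

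DAPT and TAE226 differed less in level. DAPT had the lower mean for 47 genes, and 14 passed, all lower under DAPT, where 11.2% of all genes were lower. The greatest differences were -0.53 (SE 0.08, adjusted p = 0.0001) for Ckap2, -0.52 (SE 0.10, adjusted p = 0.00119) for Pttg1, -0.44 (SE 0.09, adjusted p = 0.00211) for Anln and -0.41 (SE 0.11, adjusted p = 0.0115) for Cenpe. None of the condensin (0 of 5) or checkpoint genes (0 of 4) was among the 14. Centring array medians, which moved all genes by 0.12 here and turned the split over all genes from 1282 lower and 1301 higher under DAPT to 549 and 1479, left 3 of them, Ckap2 (-0.41, adjusted p = 0.0218), Pttg1 (-0.40, adjusted p = 0.0165) and Anln (-0.32, adjusted p = 0.0333). The count was 9 without DAPT replicate 2, 9 without DAPT replicate 3 and 7 without TAE226 replicate 2.

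Further genes of mitosis were listed by function, with earlier results of these data known. Over all genes tested, 17.5%, 21.3%, 15.9% and 26.9% were lower under DAPT, U0126, TAE226 and PP2, and 19.4% were higher under U0126. Of these 11465 genes, 1928, 1722 and 2963 were higher under DAPT, TAE226 and PP2. Of 12 further mitotic kinases and brakes, 9 were lower under DAPT, 5 under TAE226, 2 under U0126 and 10 under PP2, and 3 were higher under U0126. Trip13, which recycles checkpoint complexes, changed by -0.81 (SE 0.08, adjusted p = 1.41e-06), -0.26 (SE 0.08, adjusted p = 0.0228), -0.61 (SE 0.08, adjusted p = 3.8e-05) and -1.64 (SE 0.08, adjusted p = 9.71e-11) under DAPT, U0126, TAE226 and PP2. Aurka, the spindle pole kinase Aurora A, fell under PP2 (-1.09, SE 0.09, adjusted p = 3.35e-08) and rose under U0126 (0.29, SE 0.09, adjusted p = 0.016), as did Wee1, the kinase that restrains Cdk1, under U0126 (0.41, SE 0.08, adjusted p = 0.000668). Of 25 further kinetochore genes, 12 were lower under DAPT, 6 under TAE226, 4 under U0126 and 19 under PP2, and 3 were higher under U0126. Sgo1, shugoshin, the guardian of centromere cohesion, changed by -1.77 (SE 0.11, adjusted p = 6.11e-10) under PP2 and -0.81 (SE 0.11, adjusted p = 1.83e-05) under DAPT. Cenpm and Knstrn, of the inner and outer kinetochore, rose under U0126 (0.85, SE 0.19, adjusted p = 0.00145 and 0.62, SE 0.13, adjusted p = 0.00118). Of 16 further motor, spindle and cytokinesis genes, 7, 5, 0 and 10 were lower under DAPT, TAE226, U0126 and PP2, and 1, 4, 5 and 1 were higher. Under TAE226 the higher ones were Gtse1 (0.62, SE 0.08, adjusted p = 1.19e-05), Troap, Kif3b and Psrc1, named after their values were seen. Cep55, of the abscission bridge, changed by -1.58 (SE 0.08, adjusted p = 4.23e-11) under PP2, and Cit, citron kinase, by 1.09 (SE 0.31, adjusted p = 0.0107) under U0126. With medians centred, 1 was higher under U0126 and 1 under TAE226, where 1198 and 423 of all 11465 genes tested were.

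The subunits of the APC/C were counted apart from its activators and targets. Of 17 subunits and partners, 7 were lower under DAPT, 5 under U0126, 6 under TAE226 and 5 under PP2, with 2 higher under PP2 and a median of -0.12 there. The shares of all genes tested that were lower were 17.5%, 21.3%, 15.9% and 26.9% in that order, and 2963 of 11465 were higher under PP2. The PP2 count of subunits and partners, 29.4%, was thus near that of all genes. Under PP2 Fbxo5, the inhibitor EMI1 and itself a cell-cycle gene, changed most (-1.10, SE 0.14, adjusted p = 4.16e-06), and among subunits Anapc11 was lower (-0.61, SE 0.09, adjusted p = 1.81e-05) and Anapc13 higher (0.46, SE 0.05, adjusted p = 1.69e-06). With medians centred, 10 of the 17 were lower and 0 higher under PP2, against 4369 and 1202 of all 11465 genes tested. Condensin II and cohesin, which hold and fold chromatin through interphase as well, had 1 of 11 genes lower under DAPT, 6 under U0126, 4 under TAE226 and 5 under PP2. Ncapg2, a condensin II subunit, was lower throughout, at -0.60 (SE 0.08, adjusted p = 1.39e-05), -0.59 (SE 0.08, adjusted p = 1.19e-05), -0.60 (SE 0.08, adjusted p = 1.94e-05) and -1.11 (SE 0.08, adjusted p = 4.1e-09) under DAPT, U0126, TAE226 and PP2. Stag1, a cohesin subunit, changed by -0.78 (SE 0.08, adjusted p = 6.43e-07) under U0126 and -0.35 (SE 0.08, adjusted p = 0.00143) under PP2.

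**Figure D5:**
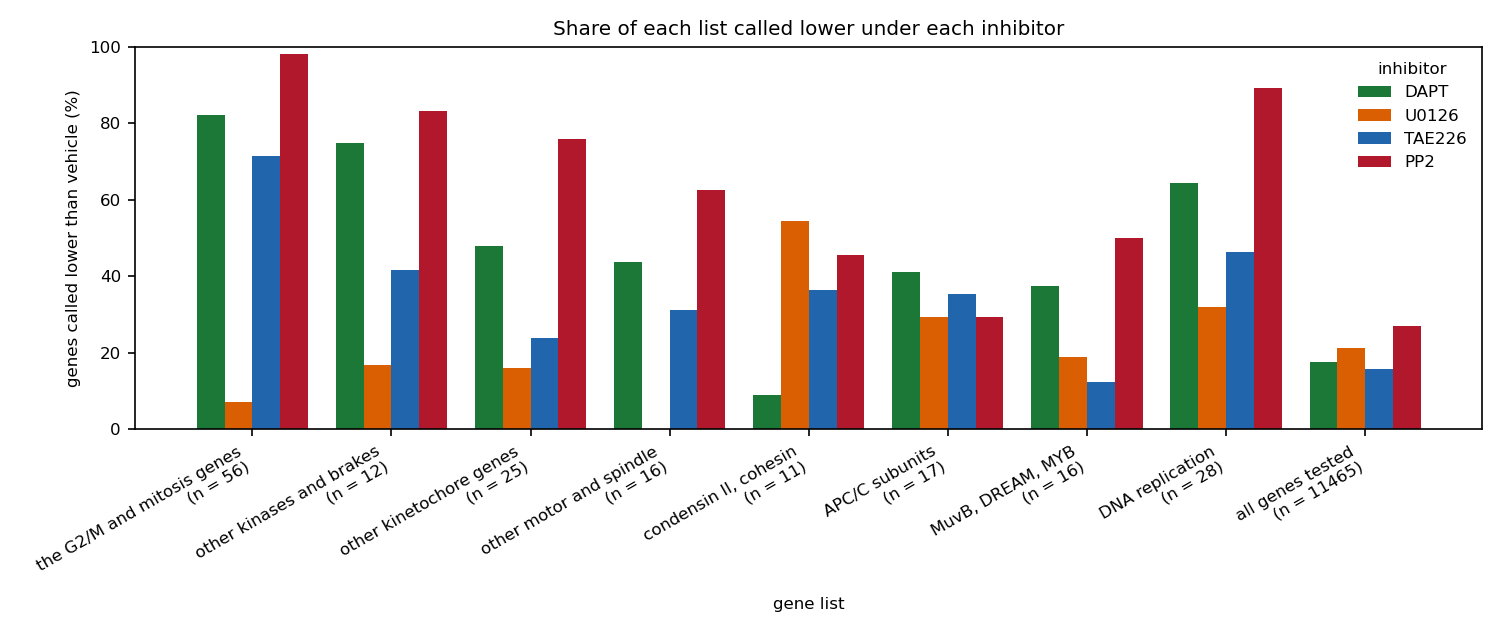
Percent of genes called lower than vehicle (y axis, limma, adjusted p under 0.05) for the 56 genes, 7 other lists and all genes tested (x axis, n given), by inhibitor. The 56 genes reach 98.2% under PP2, DNA replication 89.3%, and APC/C subunits 29.4%, near the 26.9% of all genes.

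Genes of the DREAM, MuvB and MYB complexes were mixed. Under PP2 8 of 16 were lower and 3 higher, and under DAPT 6 were lower and 1 higher. Over all 11465 genes tested, 26.9% were lower and 2963 genes higher under PP2, and 17.5% lower and 1928 genes higher under DAPT. The shares lower under U0126 and TAE226 were 21.3% and 15.9%. Lin9, a MuvB subunit, and Rbl1, the pocket protein p107, fell under PP2 (-0.94, SE 0.12, adjusted p = 4.2e-06 and -1.13, SE 0.08, adjusted p = 3.19e-09). Mybl2, which encodes B-MYB, fell under DAPT (-0.65, SE 0.21, adjusted p = 0.0257) and PP2 (-0.84, SE 0.21, adjusted p = 0.00348). It was not above the array median on the PP2 arrays. Taking the higher of the median and its own signal there, Mybl2 fell at least 1.21-fold. Rbl2, the pocket protein p130 of resting cells, rose under DAPT (0.49, SE 0.08, adjusted p = 0.000283) and, named after its value was seen, under PP2 (0.60, SE 0.08, adjusted p = 1.74e-05). E2f8, a repressor of the E2F family, changed by -0.63 (SE 0.15, adjusted p = 0.00374), -0.75 (SE 0.15, adjusted p = 0.00104) and -1.12 (SE 0.15, adjusted p = 9.19e-06) under DAPT, TAE226 and PP2. DNA replication genes, which act a phase earlier, were lower for 18 of 28 under DAPT, 9 under U0126, 13 under TAE226 and 25 under PP2, with medians of -0.41, -0.16, -0.24 and -0.83. Mcm5, of the replicative helicase, changed by -0.80 (SE 0.10, adjusted p = 7.17e-06), -0.56 (SE 0.10, adjusted p = 0.000199) and -1.78 (SE 0.10, adjusted p = 1.73e-10) under DAPT, U0126 and PP2. Cdc6, which loads that helicase, changed by -0.76 (SE 0.17, adjusted p = 0.00186), -0.87 (SE 0.17, adjusted p = 0.000438), -0.66 (SE 0.17, adjusted p = 0.00611) and -1.36 (SE 0.17, adjusted p = 3.05e-06) under DAPT, U0126, TAE226 and PP2. Under U0126 the replication list had 0 genes higher and the 56 mitotic genes had 4, where 19.4% of all genes tested were higher. With medians centred, 1 of the mitotic genes was higher. With medians centred, the counts lower under TAE226 were 20 of the further kinetochore genes, 11 of the APC/C subunits and partners, 7 of condensin II and cohesin, 10 of the DREAM, MuvB and MYB genes and 23 of the replication genes. Of all 11465 genes tested, 4259 were lower there.

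The 56 genes had 127 probe sets in all, and 34 genes had another one above the array median on at least 3 arrays, 53 such probe sets in all. Of these, 46 lay below vehicle under DAPT, 23 under U0126, 35 under TAE226 and 48 under PP2. For 6 genes (Aurkb, Cdc20, Incenp, Kif22, Kif2c and Ncaph) the probe set used is of the _x_at type, marked as open to cross-hybridisation. Nek2, Prc1, Cdca8 and Pttg1 were read from the _s_at type, which can also match other genes and was not set aside in any setting. Averaging all probe sets of a gene, dim ones included, left 53 of the 56 genes tested, since Foxm1, Ska1 and Kif18a no longer passed the filter. It called 20 genes under TAE226, where 40 were called from the probe sets used. The TAE226 calls lost were those of Nek2, Bub1, Bub1b, Ttk, Cenpa, Cenpf, Cenpn, Spc25, Kif23, Kif2c, Nusap1, Tpx2, Hmmr, Smc2, Ncapd2, Top2a, Cdc20, Pttg1, Cdca3, Anln and Racgap1. The 15 DAPT calls lost were those of Cdc25c, Nek2, Ttk, Cenpa, Cenpf, Ndc80, Spc25, Kif20b, Kif23, Kif2c, Ncapd2, Top2a, Incenp, Cdc20 and Racgap1. Of the calls against vehicle, 29 of 46 under DAPT, 1 of 8 under U0126, 11 of 40 under TAE226 and 48 of 55 under PP2 were tested and kept in all 24 settings. Of the remaining PP2 calls, 5 (Kif20b, Kif23, Top2a, Incenp and Cdca3) were lost with probe sets averaged, and 2 (Ska1 and Kif18a) were not tested in that setting.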

How the data were processed

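RNA was hybridised to Mouse430_2 arrays, 3 per group. The deposited values are linear signal intensities, made by the authors with MAS5 in Affymetrix Expression Console per the submitters' processing notes, with versions not given in the sources used here. A 2% trimmed mean gave 500 for every deposited intensity column, which fits a common scaling target. Gene names came from the platform annotation, updated by Entrez ID: of 45101 probe sets, 34945 had 1 gene, 932 several and 9160 none.

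Intensities were taken to log2. The 11465 genes that exceeded the median of at least 3 of the 15 arrays were tested with limma 3.58.1 in R 4.3.3, lmFit and eBayes with an intensity trend, 1 coefficient per group, 10 residual degrees of freedom, 2-sided, and Benjamini-Hochberg adjustment over all genes tested at 0.05. Every adjusted p given is from limma. The fitting code was tested on simulated data. Precision is limited by the number of arrays.

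The members and lists were chosen with earlier results of these data known. Named genes are 1 or more members per class picked for their role, the greatest fall and rise per class and comparison, members against the main direction, and at most 4 genes per other list and comparison. Other members and Cdc25b, Ckap2 and Anln per array, were added after their values were seen. The alternatives were median centring, quantile normalization, a pseudocount, no filter or a stricter one, and _x_at probe sets only where a gene had no other. Also tried were averaged probe sets, no trend, a replicate block and leaving out each array. Listed genes that did not pass the filter or had no probe set of their own were not tested.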

Additional observations from a re-analysis of the deposited data

How the results depend on the processing

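For 16 genes picked for their role, direction and call were the same in 40 of 64 gene and comparison pairs under each of the 24 settings that tested the gene (Foxm1 was not tested with probe sets averaged). Centring array medians gave medians over the 56 genes of -0.79 under DAPT, -0.11 under U0126, -0.76 under TAE226 and -1.60 under PP2, 5 calls under U0126 of which 1 was higher, and 3 calls for DAPT against TAE226. A pseudocount at the median signal gave medians of -0.55, -0.41 and -1.17 under DAPT, TAE226 and PP2. Averaging the probe sets of a gene gave medians of -0.54, -0.32 and -1.18, with 20 genes called under TAE226, all 20 lower, 2 lower under U0126, and 22 for U0126 against TAE226. Among all called members it turned the sign of Cenpa (0.09, adjusted p = 0.821), Top2a (0.06, adjusted p = 0.886), Hmmr (0.01, adjusted p = 0.959) and Racgap1 (0.17, adjusted p = 0.764) under TAE226, Racgap1 (0.03, adjusted p = 0.955) under DAPT and Smc2 (0.03, adjusted p = 0.887) under U0126. With no filter, 2 genes were lower under U0126. Probe sets never above the array median enter the averages for Cenpa, Top2a and Racgap1, among others, but not those for Hmmr and Smc2. The other Hmmr probe sets were above it on 15, 15, 12 and 6 arrays, and the other Smc2 probe sets on 15, 15, 15 and 6. The latter stood at -0.24, 0.15, 0.08 and 0.33 under U0126. The cause of the turned signs was not tested.

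Leaving out 1 array gave 43 to 48 calls under DAPT, 4 to 9 under U0126 (1 to 5 lower, 2 to 5 higher), 30 to 42 under TAE226 and 55 to 56 under PP2. The medians ran from -0.70 to -0.61, -0.08 to 0.01, -0.52 to -0.46 and -1.50 to -1.29. Between inhibitors the counts were 44 to 48 (DAPT and U0126), 7 to 15 (DAPT and TAE226), 46 to 53 (DAPT and PP2), 29 to 41 (U0126 and TAE226), 54 to 55 (U0126 and PP2) and 51 to 55 (TAE226 and PP2). The U0126 count was 4 without vehicle replicate 1, vehicle replicate 2 or U0126 replicate 2, and 5 without U0126 replicate 1.

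Replicate numbers did not pair the arrays: deviations of same-numbered arrays correlated at -0.244 to 0.202, over 0.1 in 6 of 30 pairs. With the replicate block, 2 genes were lower under U0126. Signal near background limits Ska1 under PP2 and on 1 array each of DAPT and TAE226, and Ndc80 on 2 of the 3 PP2 arrays. Cdc25c, Cenph and Espl1 were each not above the array median on 1 PP2 array.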
